A study of Mus musculus with 9 samples.

Results

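The core spliceosome was examined in whole E15.5 mouse kidneys through the genes for its snRNP proteins, the U2 auxiliary factors, the Prpf factors, the LSm proteins and 5 further splicing factors. Members were chosen by gene symbol (names beginning Snrp, Sf3a, Sf3b, U2af, Prpf or Lsm, and *Dhx8*, *Dhx15*, *Ddx23*, *Eftud2* and *Cdc5l*), with a mean of at least 5 FPKM over 9 libraries, and 51 of the 24138 rows of the expression table were members. FPKM are fragments per kilobase of transcript, scaled to the library, so levels can be compared between genes. Symbols of 53 rows matched. *Lsm11* fell short of the minimum with a mean of 4.37 FPKM, and *Snrpn*, which shares its row with the overlapping gene *Snurf* (12.1 FPKM), was left out because it is an imprinted, largely neuronal gene. The lowest members were *Lsm1* (12.9 FPKM) and *Prpf4* (13.1 FPKM).

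RNA was sequenced from 3 kidneys of each of 3 genotypes at E15.5, collected from 3 crosses of *Ntn1fl/fl* with *Foxd1GC/+;Ntn1fl/+* mice. *Foxd1GC/+;Ntn1fl/fl* kidneys (MUT) carried the GFP-Cre insertion at 1 *Foxd1* allele and 2 floxed alleles of *Ntn1*, which encodes the secreted guidance cue netrin 1. *Foxd1GC/+;Ntn1fl/+* kidneys (HET) carried the same insertion and 1 floxed *Ntn1* allele, and *Ntn1fl/fl* kidneys (WT) carried 2 floxed alleles and no Cre. The comparison of MUT with HET asks what the second floxed *Ntn1* allele adds among mice that share the *Foxd1* insertion, and the comparisons with WT add the insertion itself. Cre was driven by *Foxd1*, a gene of stromal progenitors, so recombination was directed to the stroma and its descendants while the RNA came from all cells of the kidney. Fewer cells of a type and less RNA per cell cannot be told apart in such samples.

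The spliceosome removes introns from pre-mRNA. The U1 snRNP pairs with the 5′ splice site, U2AF and the U2 snRNP recognise the 3′ splice site and the branch point, and the U4/U6.U5 tri-snRNP then joins, after which U4 leaves and the Prp19 complex stabilises the active center. Late helicases release the spliced mRNA and take the particle apart. Its proteins are made in every cell type of the kidney.

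*Ntn1* was at 17.8 to 28.9 FPKM in WT, 12.02 to 16.5 in HET and 10.8 to 16.5 in MUT. The FPKM of the targeted gene thus separated WT from the other genotypes and did not separate HET from MUT. These values cover RNA from all cells of the kidney, and the authors also saw weaker *Ntn1* mRNA in the proximal tubule. By immunostaining they found little to no netrin 1 protein in the interstitium around the nephron progenitors of mutants. Markers of nephron progenitors (*Six2*), stroma (*Foxd1*), ureteric bud (*Ret*), podocytes (*Wt1*) and endothelium (*Pecam1*) were present in every library. Of the other tissues checked, 7 liver markers summed to 715 FPKM in HET-2 against 28.6 to 53.8 elsewhere, and 4 skeletal muscle markers summed to 74.5 FPKM in HET-3 against 1.22 to 4.77 elsewhere. The number of reads behind each value is unknown. The spacing of the lowest FPKM put relative depth, with WT-1 at 1, between 0.576 in WT-2 and 1.28 in MUT-1.

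Core spliceosome genes were among the more strongly expressed genes of the kidney. Their median was 65.4 FPKM against 18.7 for all 9978 rows that reached the same minimum. Levels differed between subcomplexes. The 7 Sm core genes, whose products form the ring shared by the U1, U2, U4 and U5 snRNPs, ranged from 126 to 399 FPKM with a median of 292. The 14 U2 and U2AF genes had a median of 85.4 FPKM (29.3 to 170), and the 10 LSm genes 71.5 FPKM (12.9 to 133). The LSm group was set by name. *Lsm2* to *Lsm8* belong to the ring on U6 snRNA, and *Lsm1*, *Lsm10* and *Lsm12* do not. The medians were 45.4 FPKM for the 5 U1 genes (13.3 to 124), 39.9 for the 7 genes of U5 and the tri-snRNP, 46.9 for the pair of Prp19 complex genes, 18.6 for the 3 U4/U6 genes and 18.5 for the late factors *Dhx15*, *Dhx8* and *Prpf18*, of which *Dhx15* reached 116.

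Stretches of 4 promoters are shown because their genes anchor the comparisons. *Snrpe* is the most strongly expressed member, *Snrpa* and *Prpf3* had the smallest unadjusted p between MUT and HET, and *Prpf39* was the gene with the largest difference among those whose MUT and HET libraries did not overlap. Each line gives the 100 bases before the first transcribed base, on the gene's strand, from RefSeq on GRCm38 (mm10), with matches to the motifs listed below in capitals.
*Snrpe*, chr1:133610281-133610380, minus strand: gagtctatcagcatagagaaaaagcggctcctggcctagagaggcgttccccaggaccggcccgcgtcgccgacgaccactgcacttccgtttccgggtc
*Snrpa*, chr7:27196272-27196371, minus strand: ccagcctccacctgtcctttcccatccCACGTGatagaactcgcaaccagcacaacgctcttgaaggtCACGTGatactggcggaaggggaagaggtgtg
*Prpf39*, chr12:65036234-65036333, plus strand: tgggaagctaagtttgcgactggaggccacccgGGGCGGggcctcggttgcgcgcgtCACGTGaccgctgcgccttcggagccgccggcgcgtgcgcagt
*Prpf3*, chr3:95855886-95855985, minus strand: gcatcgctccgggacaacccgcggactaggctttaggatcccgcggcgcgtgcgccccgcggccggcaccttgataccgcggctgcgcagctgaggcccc

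The 2 capital stretches of *Snrpa* are E boxes and those of *Prpf39* are a GC box and an E box, while the stretches of *Snrpe* and *Prpf3* held none of the motifs searched. Motifs were searched on both strands from 250 bases before to 50 bases after the start in the 39 members with a window in the table, and in 7753 of the tested genes. The ETS core CCGGAAG was in 38.5% of member windows and 19.9% of windows of tested genes. The NRF1 core CGCATGC, searched in place of a longer form whose matches had been seen, was in 10.3% and 7.27%. The CCAAT box (CCAAT) was in 46.2% and 39.4%, the GC box (GGGCGG) in 61.5% and 68.4%, and the TATA box (TATAAA) in 5.13% and 6.44%. The E box CACGTG, added after these sequences were read, was in 10.3% and 10.7%, and the 4 members that held it were *Prpf3*, *Prpf39*, *Snrpa* and *Prpf40b*. Motifs can overlap one another. These matches describe the letters in the windows, and binding was not measured.

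No core spliceosome gene passed the test between any genotypes. With limma on log2(FPKM + 1), 0 of 51 members had an adjusted p under 0.05 in MUT against HET, MUT against WT or HET against WT, and the smallest adjusted p of a member was 0.842, 1.00 and 0.999 in that order. The background was also 0 of 9978 genes (0.0%) in each comparison. At an unadjusted p under 0.05, limma gave 389 genes (3.9%) in MUT against HET, 85 (0.852%) in MUT against WT and 78 (0.782%) in HET against WT, of which 2, 0 and 0 were members. The differences below are therefore given as values. With 3 libraries per genotype, the two-sided exact permutation test of a single gene has 0.1 as its smallest p.

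In MUT against HET, 41 of 51 members were lower in MUT (80.4%), where 54.1% of all genes tested had a fold change below 0. The median log2 fold change was -0.13 over the members and -0.02 over all genes. The members' fold changes lay between -0.37 and 0.25. A difference of 1.2-fold with an unadjusted p of at most 0.05 was met by 2 members in the lower direction (3.92%, background 1.92%) and 0 in the higher (background 1.72%). The lower count was 0 without MUT-2 or HET-1, 1 without MUT-1 or HET-2, 4 without HET-3 and 11 without MUT-3. The backgrounds given are those of the fit with all 9 libraries. Shares of all genes tested are not given for the leave-outs, so these counts cannot be read as particular to the members. All 3 MUT libraries lay below all 3 HET libraries for 3 members (5.88%, background 4.44%), and above them for 0 (background 5.1%). Without MUT-2 the median was -0.07 with 42 members lower, without MUT-3 it was -0.20 with 45 lower, and without HET-2 or HET-3, the libraries with liver and muscle markers, 43 and 38 members were lower.

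**Figure D1:**
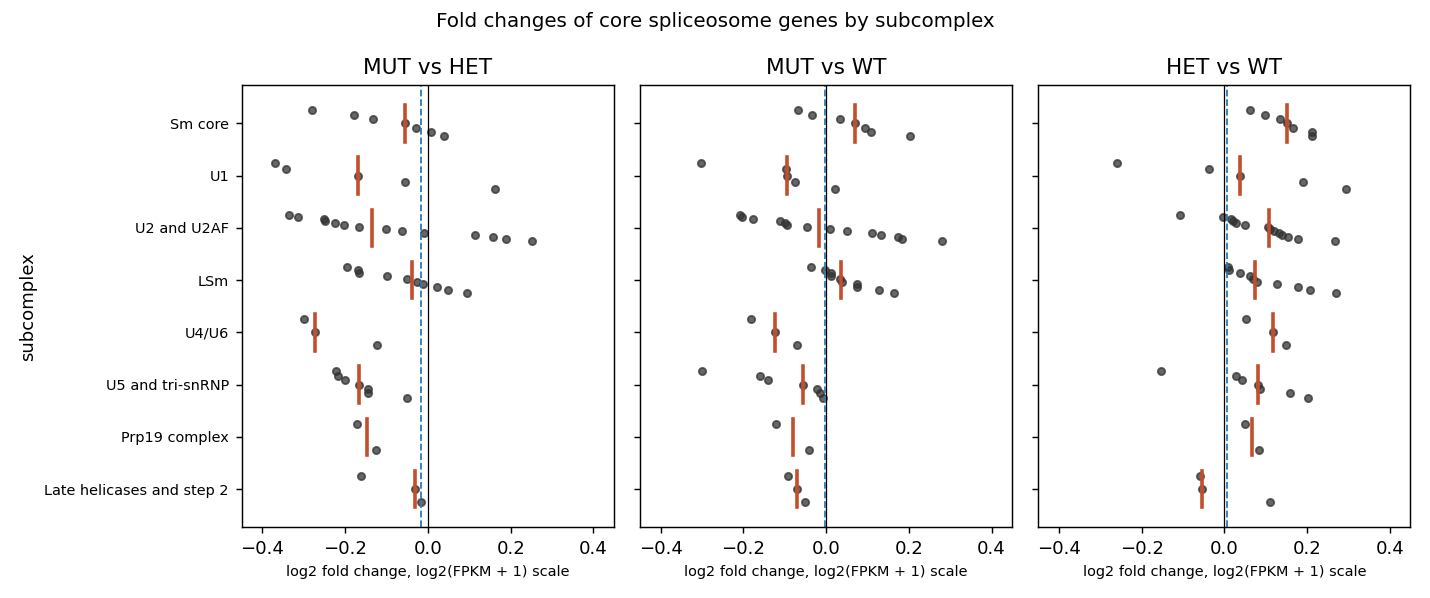
Log2 fold changes on the log2(FPKM + 1) scale (x axis) of the 51 core spliceosome genes by subcomplex (y axis) in 3 comparisons. Points are genes, red bars are the subcomplex medians and the dashed blue line is the median of all 9978 genes tested. In MUT vs HET the 12 genes of U4/U6, U5 with the tri-snRNP and the Prp19 complex all lie below 0, and in HET vs WT all 7 Sm core and all 10 LSm genes lie above 0.

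All 3 U4/U6 genes (median -0.27), all 7 genes of U5 and the tri-snRNP (median -0.17) and both Prp19 complex genes (median -0.15) were below 0 in MUT against HET. The median was -0.17 for U1 (4 of 5 lower), -0.13 for U2 and U2AF (10 of 14 lower), -0.06 for the Sm core (5 of 7 lower), -0.04 for LSm (7 of 10 lower) and -0.03 for the late factors (3 of 3 lower). Differences between subcomplexes were not tested, since genes of 1 library are not replicates.

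*Prpf3*, a protein of the U4/U6 snRNP that is mutated in a form of retinitis pigmentosa, occupies chr3:95830622-95855753 in mm10. In libraries 1 to 3 of each genotype its FPKM was 21.2, 19.6 and 20.5 in HET, 16.9, 14.5 and 18.03 in MUT, and 16.7, 19.1 and 20.6 in WT, and values of other genes are given in the same order. Every MUT library was below every HET library, and WT overlapped both. The log2 fold change from HET to MUT was -0.30 (s.e. 0.11, 95% interval -0.54 to -0.06, unadjusted p = 0.0194 and adjusted p = 0.842 from limma, exact permutation p = 0.1).

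*Snrpa* encodes the A protein of the U1 snRNP, which binds a stem-loop of U1 snRNA, and occupies chr7:27187006-27205386. Its FPKM was 149, 155 and 126 in HET, 110, 91.2 and 133 in MUT, and 103, 127 and 120 in WT. MUT-3 lay above HET-3, so the genotypes overlapped. The log2 fold change was -0.37 in MUT against HET (s.e. 0.15, 95% interval -0.71 to -0.03, unadjusted p = 0.0355 and adjusted p = 0.842 from limma, exact permutation p = 0.2). It was 0.29 in HET against WT (s.e. 0.15). The row extends 9115 bases past the annotated gene and overlaps *BC024978* on the other strand, and whether counting used strand is not stated.

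*Prpf39*, a partner of the U1 snRNP (chr12:65036334-65073938), was at 17.9, 17.5 and 22.8 FPKM in HET and at 15.7, 13.2 and 16.3 FPKM in MUT. In WT it was at 15.98, 15.4 and 26.5 FPKM. MUT lay below HET without overlap, while WT-3 stood above all other libraries. The log2 fold change from HET to MUT was -0.34 (s.e. 0.19, adjusted p = 0.842 from limma). Its row extends 10552 bases past the annotated gene and overlaps *Fkbp3* on the other strand. *Ddx23*, the helicase that frees the 5′ splice site from U1, was the third gene without overlap. Its values were 39.3, 37.9 and 37.6 FPKM in HET, 35.6, 30.9 and 37.4 FPKM in MUT and 34.8, 37.9 and 35.2 FPKM in WT, so the highest MUT library was just below the lowest HET library. Within U5, *Prpf8*, the scaffold of the catalytic center, had 68.7, 67.9 and 59.6 FPKM in HET and 73.0, 41.8 and 64.3 in MUT, with 63.5, 72.0 and 43.5 in WT, so that 1 MUT library stood low and another above every HET library.

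Among the other members named for their level or their p, *Snrpb*, the Sm protein B gene, was at 374, 366 and 305 FPKM in HET, 281, 252 and 329 in MUT and 263, 345 and 295 in WT. *Sf3b5*, a small subunit of SF3b, was at 175, 165 and 145 FPKM in HET, 109, 129 and 154 in MUT and 114, 146 and 144 in WT. *U2af1*, which reads the AG of the 3′ splice site, was at 197, 182 and 176 FPKM in HET, 138, 148 and 184 in MUT and 136, 186 and 182 in WT. In all 3 the means were lower in MUT and MUT-3 lay within the HET range. *U2af1* shares 62.2% of its 50-base stretches with another annotated gene, so its level is uncertain. *Prpf31*, a U4/U6 protein, was at 32.0, 32.7 and 34.7 FPKM in HET, 26.0, 22.6 and 34.5 in MUT and 23.6, 32.4 and 34.4 in WT. *Prpf38b*, a tri-snRNP factor, was at 34.8, 32.6 and 36.7 FPKM in HET, 32.7, 27.5 and 30.1 in MUT and 34.4, 29.6 and 37.4 in WT. MUT-2 was the lowest library for both. Of the Prp19 complex, the ubiquitin ligase gene *Prpf19* was at 60.4, 60.6 and 62.0 FPKM in HET, 56.1, 49.5 and 62.5 in MUT and 53.5, 59.1 and 60.05 in WT. Its partner *Cdc5l* was at 38.8, 35.2 and 38.2 FPKM in HET, 32.8, 29.2 and 37.8 in MUT and 31.8, 38.7 and 38.0 in WT. These too were lowest in MUT-2. Of the late helicases, *Dhx8*, which releases the mRNA, was at 16.9, 18.01 and 17.4 FPKM in HET, 16.9, 12.6 and 17.4 in MUT and 15.8, 17.5 and 15.0 in WT. *Dhx15*, which disassembles the particle, was at 114, 102 and 130 FPKM in HET, 113, 107 and 117 in MUT and 108, 117 and 136 in WT, with full overlap. *Lsm4*, a subunit of the LSm ring on U6 snRNA, was at 153, 154 and 127 FPKM in HET, 119, 124 and 142 in MUT and 113, 135 and 127 in WT.

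**Figure D2:**
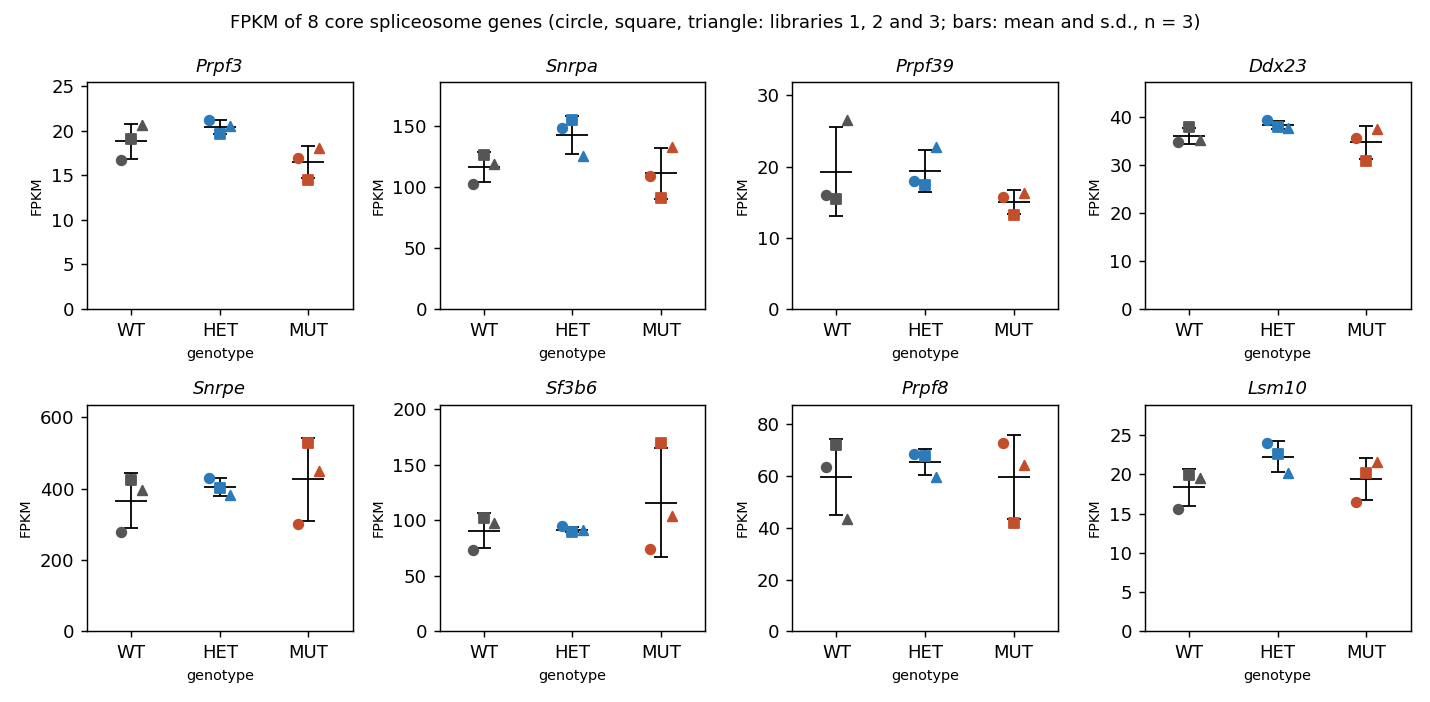
FPKM (y axes, from 0) of 8 core spliceosome genes in WT, HET and MUT kidneys (x axes). Circles, squares and triangles are libraries 1, 2 and 3, and bars give the mean and s.d. (n=3). *Prpf3*, *Prpf39* and *Ddx23* do not overlap between HET and MUT, and *Sf3b6* reaches 170 FPKM in MUT-2 against at most 104 in the other libraries.

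Of the 10 members that were higher in MUT than in HET, *Sf3b6* differed most. *Sf3b6* encodes the SF3b subunit that lies near the branch-point adenosine, and its FPKM was 74.1, 170 and 104 in MUT, 94.5, 89.3 and 91.4 in HET, and 72.9, 102 and 98.0 in WT. The difference rested on MUT-2: the log2 fold change was 0.25 (s.e. 0.24, adjusted p = 0.852 from limma) with it and -0.06 without it. *Snrpe* was highest in the same library, at 300, 529 and 449 FPKM in MUT against 430, 402 and 382 in HET and 279, 424 and 395 in WT. *Sf3a1*, of the SF3a complex, was at 40.2, 28.2 and 34.9 FPKM in MUT, 32.2, 28.8 and 28.4 in HET and 36.2, 35.0 and 20.9 in WT. All 3 overlapped between genotypes.

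Between MUT and WT the median lay closer to 0. Of the 51 members 30 were lower and 21 higher in MUT (background 51.3% lower), with a median log2 fold change of -0.03. The U4/U6, U5, Prp19 and late groups were lower in all 15 genes, with medians between -0.12 and -0.06. The Sm core had a median of 0.07 (5 of 7 higher) and LSm 0.04 (8 of 10 higher). For 0 members did all 3 libraries of one genotype lie beyond the other 3 (background 1.32% below and 1.3% above). The smallest unadjusted p belonged to *Prpf3* (-0.18, s.e. 0.11), *Prpf39* (-0.30, s.e. 0.19) and the kinase gene *Prpf4b* (-0.30, s.e. 0.19) in the lower direction, and to *Sf3b6* (0.28, s.e. 0.24), *Snrpe* (0.20, s.e. 0.21) and *Sf3a1* (0.18, s.e. 0.19) in the higher. *Prpf4b* was at 38.5, 31.3 and 36.4 FPKM in MUT, 39.6, 36.6 and 57.3 in WT and 35.0, 33.7 and 50.8 in HET, where WT-3 and HET-3 stood high. The median turned to 0.00 without MUT-2, with 24 members lower, and to 0.04 without WT-2, with 21 lower. It moved the other way to -0.10 without WT-1, with 40 lower, and to -0.08 without MUT-3, with 39 lower.

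In HET against WT, 44 of 51 members were higher in HET (86.3%, background 52.5%), with a median of 0.09 against 0.01 for all genes. All 7 Sm core genes (median 0.15) and all 10 LSm genes (median 0.07) were higher. All HET libraries lay above all WT libraries for 3 members (5.88%, background 2.06%). These were *Lsm10*, *Eftud2* and *Prpf19*. *Lsm10*, a subunit of the U7 snRNP that processes histone mRNA rather than introns, was at 24.1, 22.6 and 20.2 FPKM in HET, 15.6, 19.9 and 19.6 in WT and 16.4, 20.2 and 21.6 in MUT (0.27, s.e. 0.13, exact permutation p = 0.1). *Eftud2*, the U5 GTPase, was at 63.8, 71.5 and 63.2 FPKM in HET, 57.1, 62.6 and 52.6 in WT and 64.8, 45.5 and 61.7 in MUT. Of the 7 members lower in HET, *Prpf4b* (-0.15, s.e. 0.19) and *Sf3b1* (-0.11, s.e. 0.16) were among the 3 with the smallest p. *Sf3b1*, the largest subunit of SF3b, was at 86.1, 77.4 and 106 FPKM in HET, 85.1, 91.4 and 114 in WT and 86.6, 72.4 and 91.3 in MUT, and the genotypes overlapped. The count rested on WT-1: without it 27 of 51 members were higher, with a median of 0.01. Without WT-2 the median was 0.16, with 43 higher. Both comparisons with HET share the HET libraries, so their directions are not independent.

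**Figure D3:**
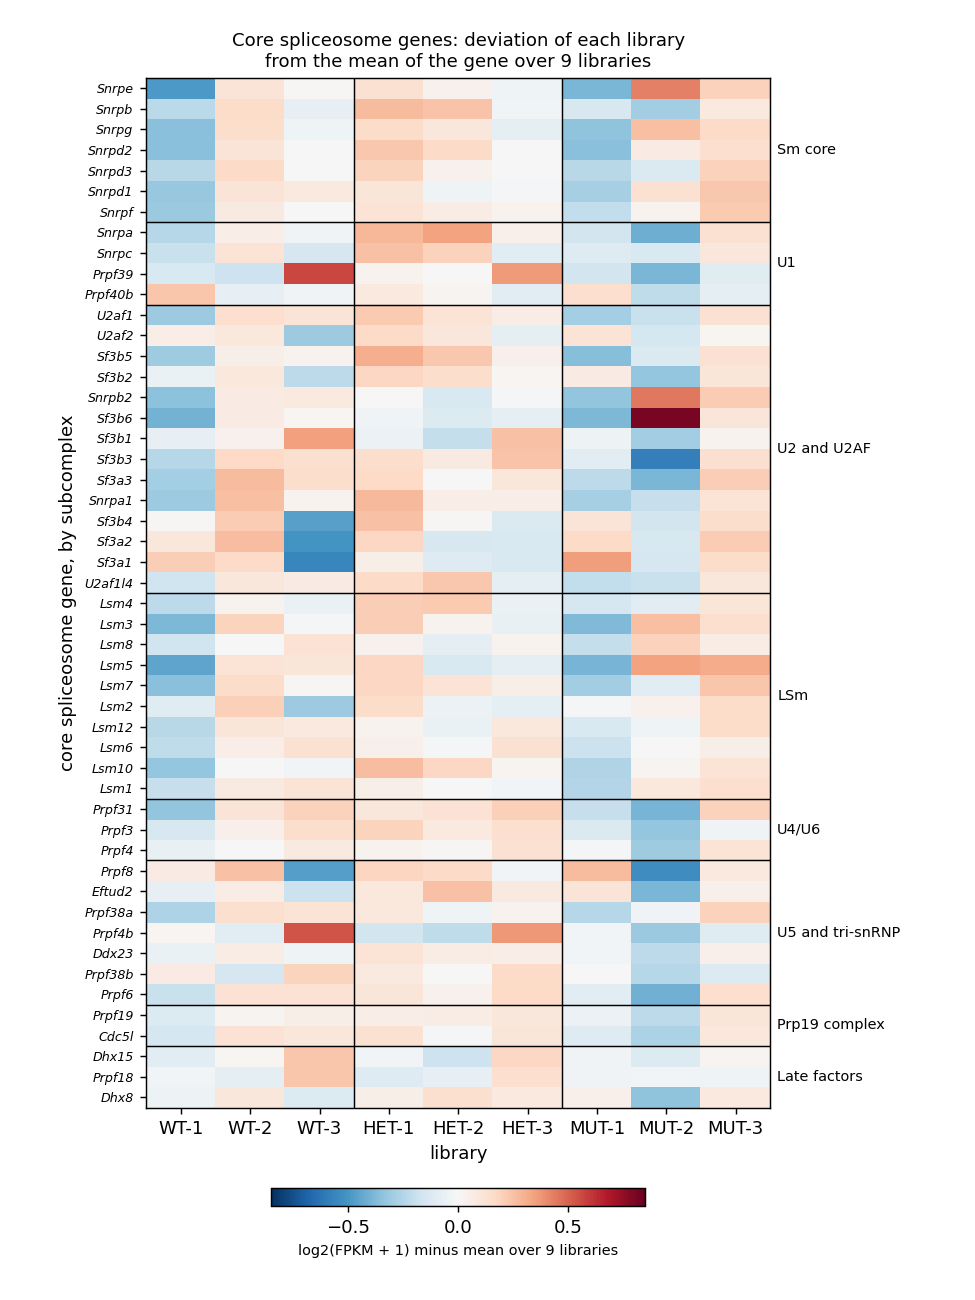
Deviation of each library (x axis) from the mean of the gene over 9 libraries, in log2(FPKM + 1), for 50 core spliceosome genes (y axis, by subcomplex). Blue is below and red above the mean of the gene. The Sm core and LSm genes are blue in WT-1 and MUT-1. The U4/U6, U5 and Prp19 genes are blue in MUT-2, and those of U4/U6 and Prp19 also in WT-1 and MUT-1.

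Within WT and within MUT the libraries differed from each other as much as the genotypes did, and within HET they differed less. The median deviation of the members from their own 9-library mean was -0.19, 0.09 and 0.03 in the WT libraries, 0.13, 0.03 and 0.03 in the HET libraries, and -0.14, -0.14 and 0.12 in the MUT libraries, each in the order 1 to 3. Over all genes tested it stayed between -0.03 and 0.03. The pooled s.d. of these medians within a genotype was 0.13, about the size of the median difference between MUT and HET. That s.d. is of single libraries, while the difference is between groups of 3 libraries, so the 2 are not on the same footing. Members were below their own mean 42 times in WT-1, 41 in MUT-1 and 36 in MUT-2, and 6 to 20 times in the other libraries. MUT-2 was the lowest library for 20 members and WT-1 for 18.

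These low libraries differed in which genes were low. In WT-1 and MUT-1 all 17 Sm core and LSm genes were below their mean, with medians of -0.32 and -0.25. Of the other 34 members 25 and 24 were below their mean there, with medians of -0.11 and -0.05. In MUT-2 the order was turned round: the 17 Sm core and LSm genes had a median of 0.03, and 31 of the other 34 were below their mean, with a median of -0.22. MUT-3, with the same genotype, had medians of 0.16 and 0.10.

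Transcript length moved with both patterns. Over the 51 members, Spearman's rho between the deviation of a library and transcript length was 0.68 in WT-1, 0.68 in MUT-1 and -0.57 in MUT-2. Over 9642 tested genes with a length it was 0.63, 0.67 and 0.01. Other libraries also varied with length. Over the members rho was -0.30 in WT-2, 0.23 in WT-3, -0.56 in HET-1, -0.23 in HET-2, 0.51 in HET-3 and -0.50 in MUT-3. Over the tested genes it was -0.43, -0.02, -0.64, -0.52, 0.27 and -0.45 in that order. These are descriptions across genes that share a library. The 20 members under 1500 bases had medians of -0.31 in WT-1 and -0.28 in MUT-1, where all genes of that length had -0.23 and -0.24. The 22 members of at least 3000 bases had a median of -0.28 in MUT-2, where all genes of that length had -0.01. The part of transcript length in the low values of these libraries was not tested.

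**Figure D4:**
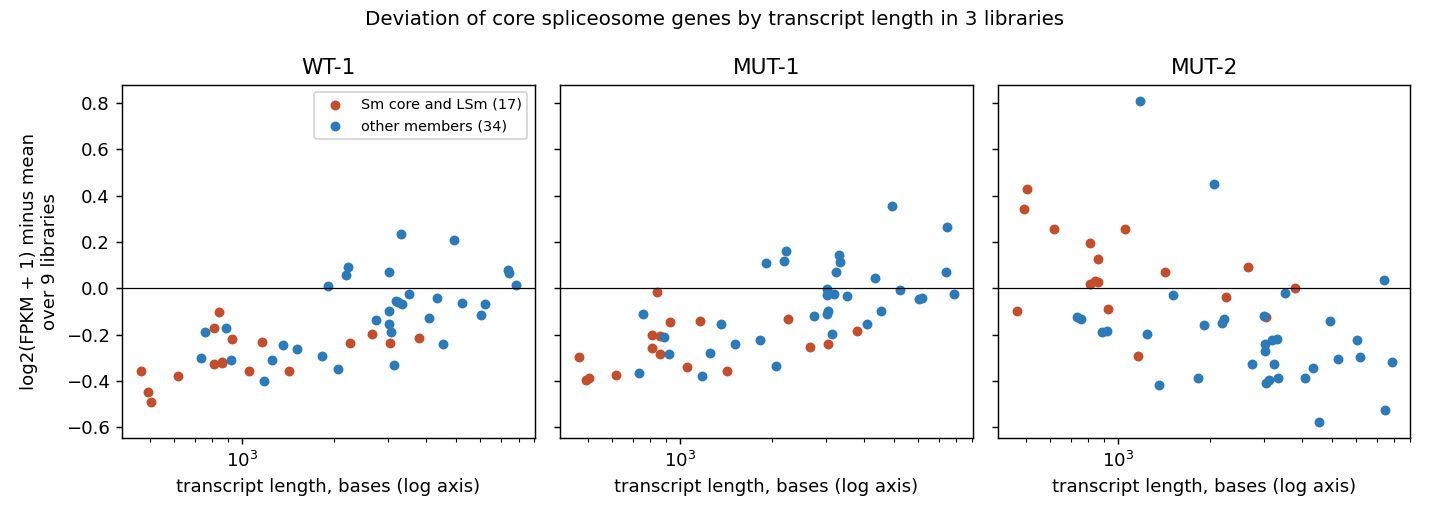
Deviation from the 9-library mean in log2(FPKM + 1) (y axis) against transcript length in bases (x axis, log scale) for 51 core spliceosome genes in WT-1, MUT-1 and MUT-2. Red points are the 17 Sm core and LSm genes and blue points the other 34. Short transcripts lie lowest in WT-1 and MUT-1 (rho 0.68 in each), and long transcripts lie lowest in MUT-2 (rho -0.57).

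GC content moved with the libraries as well. Over the 51 members rho with GC content was -0.66 in WT-3, -0.40 in HET-3, 0.59 in HET-1 and 0.64 in HET-2. Over all tested genes it was -0.67, -0.61, 0.39 and 0.55 in that order. In WT-1, WT-2, MUT-1, MUT-2 and MUT-3 it was 0.27, 0.29, 0.38, -0.39 and -0.05 over the members. Over all tested genes it was 0.16, 0.17, 0.16, -0.14 and 0.13 there. *Prpf39* (37.0% GC) and *Prpf4b* (40.8%) were highest in WT-3 and next highest in HET-3. *Lsm5*, the member with the lowest GC content (36.6%), was highest in MUT-2, at 98.4 FPKM against 83.0 in WT-3 and 73.3 in HET-3. *Sf3a2* (62.2%) was lowest in WT-3, at 23.2 FPKM against 30.3 to 40.3 elsewhere. With GC content corrected, 43 members were lower in MUT than in HET, and with GC content and length corrected together 35 were, with a median of -0.09.

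The ratio of FPKM was taken over the 9 libraries for 10 pairs of members. *Prpf8* to *Eftud2*, both of U5, ran from 0.828 to 1.15, *Snrpd1* to *Snrpd2* from 0.487 to 0.595, and *Cdc5l* to *Prpf19* from 0.581 to 0.655. *Snrpa* to *Snrpc* ran from 0.968 to 1.31, *Lsm6* to *Lsm8* from 0.174 to 0.213, and *Prpf3* to *Prpf4* from 1.27 to 1.59. The ratio of *U2af1* to *U2af2* was more variable, from 0.802 in MUT-1 to 1.42 in WT-3, and that of *Sf3b3* to *Sf3b1* ran from 0.732 in MUT-2 to 1.09 in HET-2. MUT-2 stood apart in the last 2 pairs. *Snrpa1* to *Snrpb2*, the genes of a pair of U2 snRNP proteins that bind each other, was 0.447 there and 0.654 to 0.851 elsewhere. *Snrpe* to *Snrpf* was 4.14 there and 2.76 to 3.20 elsewhere. The row of *Snrpf* extends 57936 bases beyond the annotated gene and overlaps *4933408J17Rik* and *Ccdc38* on the other strand. The pairs were chosen after values were seen.

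Other genes of the splicing pathway were also mostly lower in MUT than in HET, without passing the test. Of 43 other spliceosome genes 35 were lower in MUT than in HET (median -0.09). The same held for 8 of 8 minor spliceosome genes (median -0.14) and for 17 of 19 genes of snRNP assembly (median -0.08). Of all genes tested 54.1% were lower, with a median of -0.02. Of the listed genes 0 passed an adjusted p of 0.05 in limma. At an unadjusted p under 0.05, which 3.9% of all genes tested reached, there were 3, a share close to that background. All were lower: *Ddx39b* (-0.35, s.e. 0.15), a helicase of early assembly and mRNA export, *Ppil1* (-0.25, s.e. 0.11), a cyclophilin of the active spliceosome, and *Wrap53* (-0.28, s.e. 0.12), which brings small Cajal body RNAs to the Cajal body. *Smn1*, the center of the SMN complex that loads Sm rings, was at 35.5, 32.8 and 33.0 FPKM in HET and 35.5, 30.6 and 36.3 in MUT. In HET against WT 33, 6 and 14 genes of the 3 lists were higher, where 52.5% of all genes tested were. In MUT against WT 28, 7 and 14 were lower, where 51.3% of all genes tested were.

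**Figure D5:**
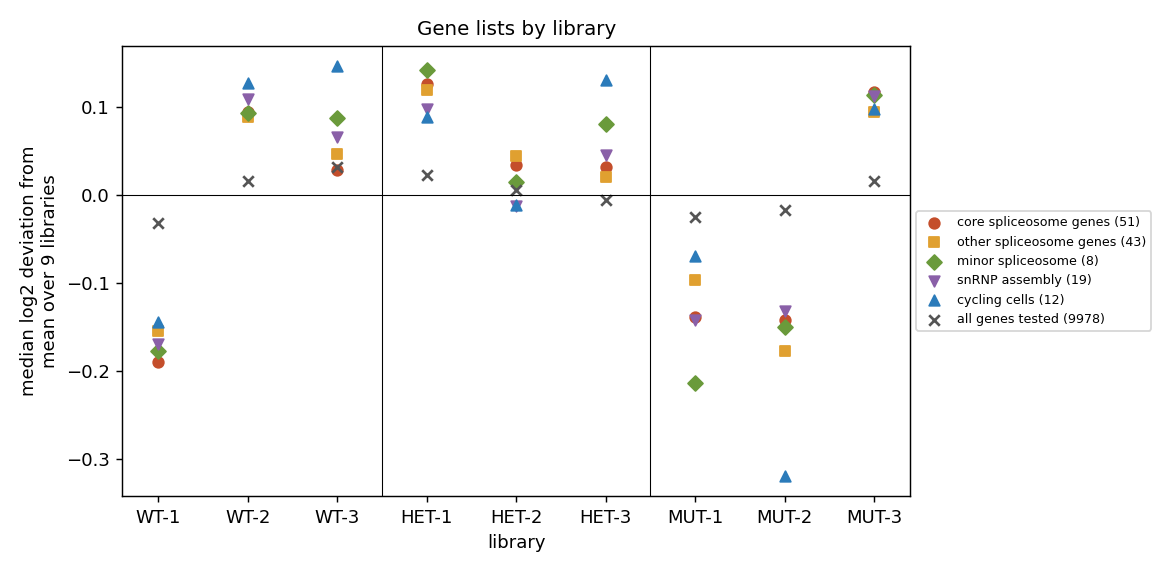
Median deviation from the 9-library mean in log2(FPKM + 1) (y axis) of 5 gene lists and of all genes tested in each library (x axis). All 5 lists lie below 0 in WT-1, MUT-1 and MUT-2, and the cycling cell list is lowest in MUT-2 at -0.32. All genes tested stay between -0.03 and 0.03.

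As a list, markers of cycling cells moved in the same libraries. All 12 listed genes, among them *Mki67*, *Top2a* and the Mcm helicase genes, were lower in MUT than in HET (median -0.15). Of all genes tested 54.1% were lower. Of the 12 genes 0 passed an adjusted p of 0.05 in limma. Their summed level was 949 FPKM in WT-1, 1005 in MUT-1 and 853 in MUT-2, and 1063 to 1192 in the other libraries. Single markers did not all follow the sum. *Mki67* and *Top2a* were lowest in MUT-2. In MUT-1 they were at 53.4 and 117 FPKM, above HET-1 (48.2 and 109) and HET-2 (43.2 and 96.1). *Plk1* was at 56.4 FPKM in WT-1 and 57.6 in MUT-1, against 39.2 in WT-3. The 4 podocyte markers ran the other way, with a sum of 176 FPKM in WT-1, 153 in MUT-1 and 158 in MUT-2 against 105 to 133 elsewhere. The part of cell composition in the members' levels was not tested.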

How the data were processed

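Whole kidneys from E15.5 embryos were sequenced with a stranded mRNA kit (3 libraries per genotype). The authors aligned reads with STAR to mm10, assembled transcripts with cufflinks and cuffmerge, and deposited FPKM computed with CuffDiff. Versions and annotation are not given in the sources used here. Whether each kidney came from its own embryo is not stated. The deposited FPKM were used unchanged, and positions were taken from the table with starts counted from 1.

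Rows with a mean of at least 5 FPKM over 9 libraries (9978) were fitted with limma 3.58.1 (R 4.3.3) after log2(FPKM + 1) transformation (all 9 libraries, eBayes with a trend, no block, two-sided, Benjamini-Hochberg, threshold 0.05). Fold changes of low genes are understated on this scale. GC content and transcript length came from GENCODE M21 (members 51 of 51, tested rows 96.63%), and promoters from RefSeq, which had no window for 12 members (among them *Ddx23*, *Eftud2*, *Lsm1*, *Lsm12*, *Lsm4*, *Prpf18*, *Sf3b4*, *Sf3b5*, *Snrpb*, *Snrpd1* and *U2af2*). Of the members, 16 overlap a gene on the other strand, and *Lsm7*, *U2af1* and *U2af1l4* share at least 50% of their 50-base stretches with another annotated gene. Relative depth was read from rows under 0.05 FPKM.

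The members and lists were chosen with earlier results of these data known. From the same MUT and HET libraries, the study reported that genes lower in MUT were associated with RNA splicing. The counts of members lower in MUT are therefore not independent of that report. *Prpf3* and *Prpf39* are also named in the study's supplement. The genes given by library are, in each subcomplex, the most strongly expressed member and the one with the smallest p in MUT against HET, the 3 members with the smallest p in each direction in each comparison, and those whose groups did not overlap. The values of 1 member are not reported here, and it is counted in all totals. Alternatives were other pseudocounts, minimums, rescalings, a GC correction, a replicate block and each library left out. A joint correction for GC content and length was chosen after seeing the data. The fit was tested on simulated data. Python 3.11.15 was used for tables.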

Additional observations from a re-analysis of the deposited data

How the results depend on the processing

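The number of members with an adjusted p under 0.05 was 0 in all 3 comparisons under each of the 25 alternatives. The median member difference kept its direction between MUT and HET, from -0.13 to -0.09 with all libraries and from -0.20 to -0.07 with libraries left out. The number of members lower in MUT was 35 under quantile normalization and 32 without the libraries numbered 1. Over leave-outs the median ran from -0.10 to 0.07 in MUT against WT and from -0.01 to 0.17 in HET against WT. The number of reads is unknown, so counting error could not be set apart from the spread between libraries.

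The count of genes called moved from 0 to 1 without a filter in MUT against WT. With libraries left out it ran from 0 to 1 in MUT against HET, from 0 to 3 in MUT against WT (2 without WT-2 or MUT-2) and from 0 to 1 in HET against WT. Members lower by 1.2-fold at an unadjusted p of at most 0.05 ran from 0 to 11, and higher members from 0 to 4. There were 11 lower members without MUT-3 and 0 without MUT-2 or HET-1. Shares of all genes tested are not given for these leave-outs, so the counts cannot be read as particular to the members.

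Among single members in MUT against HET, *Dhx15* turned to 0.026 under quantile normalization. Leave-outs spanned 0 for *Snrpe* (-0.14 to 0.32), *Prpf8* (-0.33 to 0.096), *Sf3b6* (-0.082 to 0.55) and *Dhx15* (-0.12 to 0.059). In MUT against WT they did so for *Sf3a1* (-0.078 to 0.43) and *Sf3b6* (-0.034 to 0.56), and in HET against WT for *Prpf4b* (-0.34 to 0.039) and *Sf3b1* (-0.23 to 0.016). With GC content and length corrected, *Prpf4b* and *Sf3b1* turned to 0.022 and 0.037 in HET against WT. Beyond the samples dropped, the cause was not tested.

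Same-numbered libraries did not deviate together in every pair, and MUT-1 with WT-1 did so most. Over all genes tested their correlations were -0.32, 0.06 and -0.14 between MUT and HET, 0.56, -0.26 and -0.04 between MUT and WT, and -0.19, -0.05 and 0.17 between HET and WT. Pairs with different numbers ran from -0.55 (MUT-3 with WT-1) to 0.49 (MUT-3 with WT-2). With the replicate number as a block, 0 members and 0 genes were called in each comparison, and the MUT against HET median was -0.13.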
